A study of Canis lupus familiaris with 39 samples.

Results

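Myosin heavy chains are the family of motor proteins described here, across 10 organs of the normal dog. A probeset, a group of short probes that reads 1 transcript on the array, was taken as a member when its only gene symbol in the probe table was MYH1, MYH2, MYH3, MYH6, MYH7, MYH8, MYH9, MYH10, MYH11 or MYH14. This gave 21 probesets of the 42860 on the array, for 7 of the 10 genes. MYH6, MYH8 and MYH14 had no probeset under a single symbol and were not analysed here. MYH7 has 5 probesets, MYH9 and MYH11 have 4 each, MYH1 has 3, MYH3 and MYH10 have 2 each, and MYH2 has 1. Within each gene the probesets are lettered from A by their mean over all arrays, and probeset A stands for the gene unless another is named.

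The samples were normal organs of 4 dogs, with no treatment named. The groups were heart, skeletal muscle, jejunum, lung, spleen, peripheral lymph node, kidney, liver, pancreas and brain, the last taken from the cerebrum. Each organ had 4 arrays, except pancreas, which had 3 because the authors left out 1 array. By the methods of the study each dog, a beagle or a mixed-breed animal, male or female and from puppy to adult, gave every organ, but the labels do not say which array belongs to which dog.

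A myosin heavy chain holds the motor head that binds actin and splits ATP, and a long tail that packs into filaments. Striated muscle fibres are fast or slow according to the heavy chain they carry: MYH1 and MYH2 encode fast chains of adult skeletal muscle, MYH3 the embryonic chain, and MYH7 the slow chain, which is also the beta chain of heart muscle. MYH11 encodes the smooth muscle chain, and MYH9 and MYH10 encode non-muscle chains that drive cell shape, adhesion and division. In the RefSeq gene table of the dog, MYH13, MYH8, MYH4, MYH1, MYH2 and MYH3 lie side by side in this order with 0 other protein-coding genes between them, and MYH6 lies next to MYH7. Of the 21 probesets, 11 carry the suffix _s_at and 2 the suffix _x_at, which the maker gives to probes shared with related transcripts, so the values of near relatives in that cluster cannot be fully told apart.

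Values are normalised signals on the log2 scale, and most probesets of an array lie near 4 (array medians from 3.95 to 4.11), so a value near 4 is close to background, and no fold is given against groups at that level. Arrays of the same organ correlated at 0.889 to 0.962 in skeletal muscle, the lowest range, and at 0.973 to 0.995 in lung, the highest. All measured organ markers were highest in their own organ, except ACTA1 for skeletal muscle, SFTPD for lung and CD79B for spleen. For spleen only 3 of 6 listed markers were measured. The marker lists were chosen with earlier results of these data known, so this is no independent check. Some arrays carried markers of another organ. The mean of 5 pancreas markers was 7.18, 3.78, 8.13 and 9.55 on skeletal muscle arrays 1 to 4, and 6.33 on brain array 3, against 13.47 to 13.62 on the pancreas arrays. It was also 5.96 on lymph node array 4 and 5.63 on liver array 4. The mean of 5 liver markers was 5.49, 7.05, 4.46 and 4.41 on heart arrays 1 to 4, and 6.80, 4.13, 6.86 and 4.13 on lung arrays 1 to 4, against 11.44 to 11.79 on the liver arrays. Results were fitted again, in settings added after seeing the data, with array 2 as the only skeletal muscle array, and, apart from that, without brain array 3, heart arrays 1 and 2, liver array 4, lung arrays 1 and 3 and lymph node array 4. Arrays that were kept had some liver markers too. They averaged 5.45 on kidney array 2, 5.20 and 5.02 on spleen arrays 2 and 4, and 5.36, 5.14 and 5.36 on the pancreas arrays. Below, the arrays of other organs with liver or pancreas markers are only those left out here. The part of these markers in the results was not otherwise tested. No label ties an array to a dog. The p-values and SE rest on the spread between arrays of the same organ, pooled over all organs for each probeset. They do not measure the spread of the named organ alone, which the SD gives. In whole organs, fewer cells of a type and less RNA per cell cannot be told apart.

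Of the 21 myosin heavy chain probesets, 17 differed among the 10 organs by the moderated F test of limma at a false discovery rate of 0.001, against 54.6% of all probesets. The 4 that did not pass were MYH1 probesets B and C, MYH3 probeset B and MYH7 probeset E. Each organ was then set against the unweighted mean of the other 9 organ means. These contrasts share arrays, so their values are given side by side only. In skeletal muscle 11 of the 21 probesets were called (9 higher, 2 lower), beside 15.2% of all probesets, and in spleen 9 (7 higher, 2 lower), beside 10.2%. Jejunum had 7 calls (5 higher, 2 lower) beside 9.97%, lung 7 (5 higher, 2 lower) beside 11.5%, and brain 7 (1 higher, 6 lower) beside 19%. Heart had 4 calls, all higher, beside 14%. Lymph node had 5 (2 higher, 3 lower) beside 16.9%, liver 4 beside 12.9%, kidney 3 beside 11.4% and pancreas 3 beside 24.5%, and in these last 3 organs every called probeset was lower. The lymph node count was 3 without lymph node array 3 (beside 13%) or 4 (13.4%) and 8 without spleen array 3 (17.1%). Array 2 was the only skeletal muscle array without pancreas markers. Kept alone, it gives no spread in that organ, so a call in that setting rests on the spread of the other organs. Counts in heart, jejunum, lung and lymph node rose in that setting and are given in the closing section. Without the arrays of the other organs with liver or pancreas markers, the lymph node count was 3 (beside 12.1%) and every other count stayed within 1.5 times its value. Many of the lower calls belong to MYH7, whose mean over the other 9 organs always holds heart or skeletal muscle or both.

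**Figure D1:**
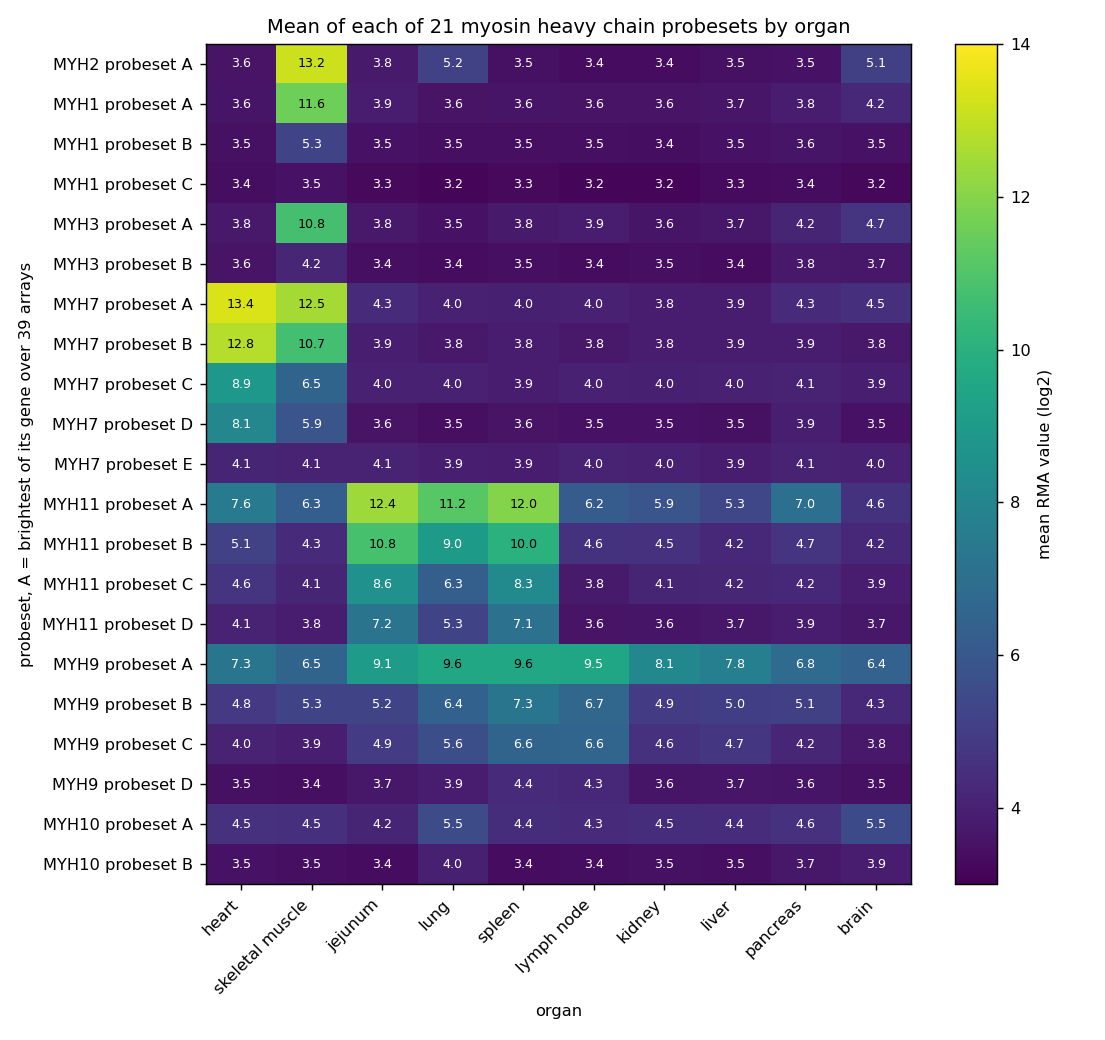
Mean normalised value (log2, colour and printed number) of each of the 21 myosin heavy chain probesets (rows, A to E within a gene) in each of 10 organs (columns). MYH2, MYH1 and MYH3 are bright in skeletal muscle, MYH7 in heart and skeletal muscle, and MYH11 in jejunum, lung and spleen, while several further probesets of these genes stay near 4.

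MYH2, the fast type IIA chain, was far higher in skeletal muscle than in any other organ and had the smallest spread there of the 4 striated chains measured. Its only probeset read 13.28, 12.89, 13.29 and 13.13 on the 4 skeletal muscle arrays, against a lowest value of 3.26, a median of 3.47 and a highest value of 8.42 on the 35 arrays of the other 9 organs. All 4 skeletal muscle arrays lay above every other array. The mean was 13.15 ± 0.19 in skeletal muscle (SD, n = 4) and 3.60 ± 0.19 in heart, and the difference of skeletal muscle from the other 9 organs was 9.27 on the log2 scale (SE 0.53), with an adjusted p of 1.89e-15. Heart had no raised MYH2: its arrays read 3.44, 3.44, 3.71 and 3.81, and the difference of heart minus skeletal muscle was -9.55 (SE 0.70, adjusted p = 2.78e-12). With array 2 as the only skeletal muscle array the differences were 9.01 from the other 9 organs and -9.29 for heart minus skeletal muscle. That fit has no spread in skeletal muscle. At the gene level, 4 of the 7 measured chains were higher in skeletal muscle than in the other 9 organs (MYH1, MYH2, MYH3 and MYH7), beside 7.77% of all genes, and MYH9 was lower, beside 10.1%.

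**Figure D2:**
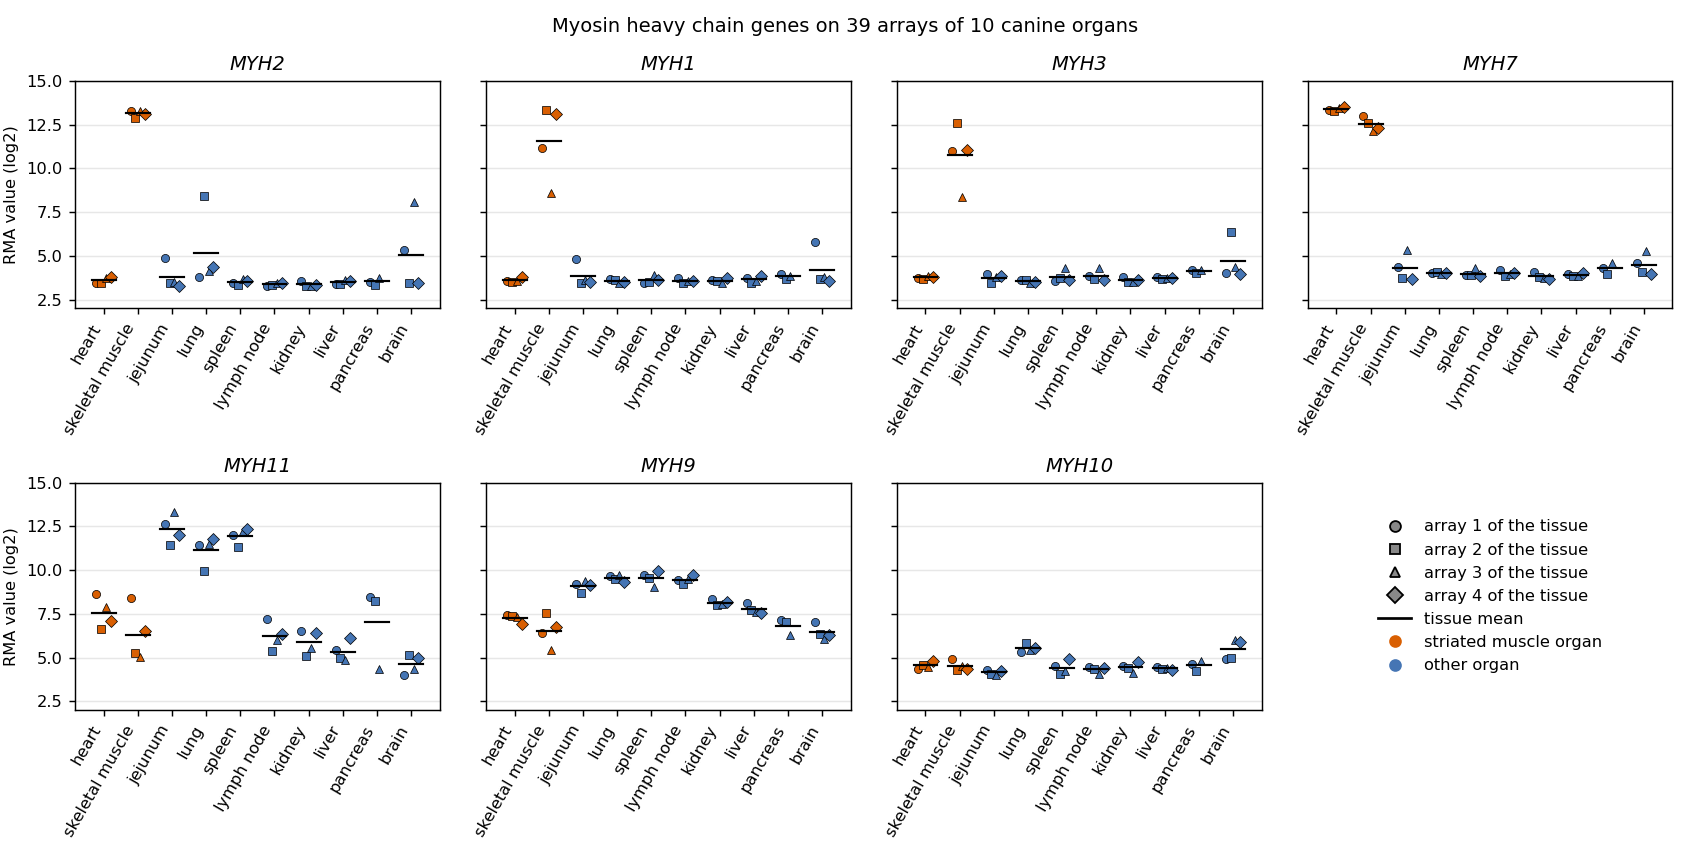
Normalised value (log2, vertical axis) of the probeset A of each of 7 myosin heavy chain genes on every array, by organ (horizontal axis). Symbols number the arrays of an organ, bars are organ means, and the striated organs are orange. MYH2 is tight in skeletal muscle (12.89 to 13.29), MYH1 and MYH3 spread over several log2 units there, and single arrays of lung and brain stand above their organs.

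MYH1, the fast type IIX chain, was by probeset A also far higher in skeletal muscle, but its level differed between the muscle arrays. Probeset A of MYH1 is an _s_at probeset, and its share between MYH1 and its neighbours in the cluster was not resolved. Probeset A read 11.18, 13.34, 8.60 and 13.11 on skeletal muscle arrays 1 to 4, against 3.42 to 5.81 (median 3.61) on the 35 other arrays. Array 3 was the lowest by more than 2 log2 units, and still stood above every array of another organ. The mean was 11.56 ± 2.20 (SD, n = 4), the difference from the other 9 organs was 7.83 (SE 0.42, adjusted p = 4.26e-16), and heart minus skeletal muscle was -7.94 (SE 0.56, adjusted p = 9.97e-13), with heart at 3.62 ± 0.13, at background. The difference from the other 9 organs was 8.82 without skeletal muscle array 3, 7.24 without array 2, and 9.61 with array 2 as the only skeletal muscle array.

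The further MYH1 probesets told less. Probeset B read 3.86, 8.97, 4.14 and 4.06 in skeletal muscle, so that array 2 alone was raised, and its heart minus skeletal muscle difference of -1.77 (SE 0.55) was not called (adjusted p = 0.0348). Probeset C, the only _at probeset of MYH1, stayed between 3.41 and 3.85 in skeletal muscle, at background. Its difference of 0.27 (SE 0.06) from the other 9 organs was called (adjusted p = 0.000381).

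MYH3, the embryonic chain, gave almost the same picture as MYH1. Probeset A read 10.99, 12.62, 8.34 and 11.08 on skeletal muscle arrays 1 to 4, against 3.42 to 6.37 (median 3.73) on the other 35 arrays. As for MYH1, array 2 was the highest and array 3 the lowest, and the muscle arrays did not overlap with the others. The mean was 10.76 ± 1.78 (SD, n = 4), with a difference of 6.88 (SE 0.36, adjusted p = 2.14e-16) from the other 9 organs. It was 7.68 without array 3, 6.25 without array 2, and 8.74 with array 2 alone. Heart minus skeletal muscle was -6.99 (SE 0.48, adjusted p = 4.77e-13), with heart at 3.77 ± 0.07, at background.

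Probeset A of MYH3 is an _s_at probeset, and it correlated with MYH1 probeset A at a Pearson r of 0.966 over the 39 arrays. The points share the same arrays, and the 4 bright skeletal muscle arrays carry most of such a value. Probeset B of MYH3, an _at probeset, read 4.28, 5.29, 3.50 and 3.61 on the skeletal muscle arrays, with a difference of 0.67 (SE 0.15, adjusted p = 0.000601) from the other 9 organs. The signal of probeset A is therefore given as that of the probeset, with its share between MYH3 and its neighbours not resolved. Of 7 measured genes in a list of embryonic and neonatal muscle genes, 2 were higher in skeletal muscle, MYH3 itself and CHRNA1, beside 7.77% of all genes. CHRNA1, a subunit of the muscle acetylcholine receptor, differed by 0.27 (SE 0.06) and averaged 3.63 ± 0.25 there, which is at background. ACTC1, the cardiac actin also made in embryonic skeletal muscle, averaged 6.68 ± 1.92 in skeletal muscle (difference 1.09, SE 0.62, adjusted p = 0.176). CHRNG, the fetal subunit of the receptor, named after its values were seen, averaged 3.48 ± 0.08 there (difference 0.08, adjusted p = 0.323). The median difference of the list was 0.24, and that of all genes was -0.02.

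RNA of most proteins that work with fast chains was high on the same arrays. In the list, ATP2A1 averaged only 5.59 ± 0.46 and PVALB 5.65 ± 1.26 in skeletal muscle. Of 10 fast fibre partners, 8 were higher in skeletal muscle than in the other 9 organs and 0 were lower, with a median difference of 7.85. Beside these counts stand 7.77% of all genes higher and 10.1% lower. TNNC2, the fast troponin C, differed by 9.44 (SE 0.39), MYLPF, the fast regulatory light chain, by 9.28 (SE 0.34), TNNT3, the fast troponin T, by 8.61 (SE 0.17), and TNNI2, the fast troponin I, by 8.47 (SE 0.55). The mean of the 10 partners was 10.24, 10.81, 11.12 and 11.02 on skeletal muscle arrays 1 to 4, so array 3, the lowest in MYH1 and MYH3, was not low in the fast partners as a group. On the same arrays the mean of 6 fibroblast markers was 10.25, 10.81, 6.79 and 7.46.

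By pattern over the 39 arrays, the genes most like MYH2 were MYLPF (r = 0.959), TNNC2 (r = 0.957) and MYBPC1, the slow-type myosin binding protein C (r = 0.947). For MYH1 they were AMPD1, the muscle AMP deaminase (r = 0.975), TNNT3 (r = 0.963) and CACNA1S, the calcium channel of the transverse tubule (r = 0.951). For MYH3 they were the same genes in the same order, at 0.969, 0.949 and 0.947. These values describe likeness on arrays that share organs, and bear no test.

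Outside the striated organs, MYH2 was raised on a few single arrays. Of 31 arrays of the other 8 organs, 3 exceeded 5 on the log2 scale: lung array 2 at 8.42, brain array 3 at 8.08 and brain array 1 at 5.31. Jejunum array 1 read 4.87. The other lung arrays read 3.81, 4.14 and 4.34, and brain arrays 2 and 4 read 3.43 and 3.46. These arrays differed in what rose with MYH2. On brain array 3 the mean of 7 measured skeletal muscle markers was 6.84, against 5.88, 4.41 and 4.25 on brain arrays 1, 2 and 4. On it 5 of the 7 were higher than on every other brain array. TNNI2 read 10.10 and TNNC2 8.02, while ACTN3 read 3.99 and RYR1 3.87. RYR1 averaged only 4.18 ± 0.26 in skeletal muscle itself, so it tells little about muscle. ACTA1 read 7.85 to 10.1 in jejunum and 7.82 to 8.59 in lung, so it tells little in those organs. On jejunum array 1 the marker mean was 5.48, against 4.48 to 4.93 on the other jejunum arrays. On lung array 2 it was 4.56, against 4.68 to 4.91 on the other lung arrays, with MYLPF at 3.64, TNNC2 at 3.51 and MYH1 at 3.61, so the fast muscle markers were not raised with MYH2 there. The part of muscle tissue in the brain and jejunum values was not tested. Without brain array 3 and lung array 2, a setting added after seeing the data, MYH2 in skeletal muscle differed from the other 9 organs by 9.5, and its call stood.

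**Figure D3:**
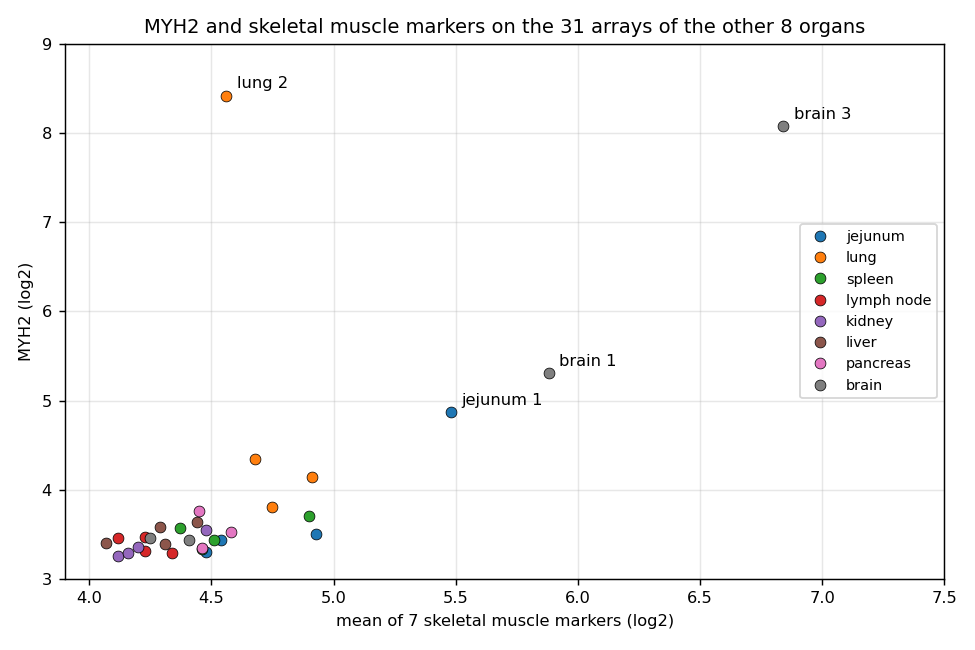
MYH2 (log2, vertical axis) against the mean of 7 skeletal muscle markers (log2, horizontal axis) on the 31 arrays of the 8 organs without striated muscle as their main tissue; each point is an array. Brain arrays 3 and 1 and jejunum array 1 are raised on both axes, and lung array 2 (8.42) is raised in MYH2 only.

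MYH1 and MYH3 had such arrays too. MYH1 reached 5.81 on brain array 1 and 4.81 on jejunum array 1, with every other array of those organs at 3.81 or below. MYH3 reached 6.37 on brain array 2, where the skeletal muscle markers averaged 4.41 and MYH2 read 3.43. After skeletal muscle, the order of organs for these 3 chains could not be resolved: no neighbouring pair below the first place was called.

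MYH7, the slow and beta cardiac chain, was high in both striated organs and near background in the rest. Probeset A read 13.32, 13.31, 13.45 and 13.50 in heart and 13.01, 12.59, 12.16 and 12.33 in skeletal muscle, against 3.69 to 5.36 (median 3.99) on the 31 other arrays. Every striated array stood above every other one. Against the other 9 organs, heart was higher by 8.35 (SE 0.19, adjusted p = 1.48e-26), and skeletal muscle by 7.39 (SE 0.19, adjusted p = 4.87e-25), or by 7.45 with array 2 as its only array. MYH7 was the 1 chain of 7 called higher in heart, beside 8.24% of all genes. Probeset A shares the transcript cluster in its name with a probeset of MYL3, the ventricular essential light chain, and correlated with it at r = 0.996 over the 39 arrays. Whether probeset A reads MYH7 alone was not tested. The genes most like it were TNNC1, the slow troponin C (r = 0.997), MYL3 (r = 0.996) and MYL2, the slow regulatory light chain (r = 0.994).

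Heart was set directly against skeletal muscle to see how the slow chain divides between them. With probeset A the means were 13.39 ± 0.09 in heart and 12.52 ± 0.37 in skeletal muscle (SD, n = 4 each). The arrays did not overlap, but the difference of 0.87 (SE 0.25) was not called (adjusted p = 0.0214). With each array shifted to an equal housekeeping median, which moved the median difference of all probesets from -0.05 to -0.99, it was -0.08. It was 0.81 with array 2 as the only skeletal muscle array (adjusted p = 0.433) and 0.95 without the arrays of other organs with liver or pancreas markers (adjusted p = 0.072). Of the 21 probesets, 5 were called in this contrast (2 higher in heart, 3 lower), beside 3.98% of all probesets.

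The 2 higher ones were further MYH7 probesets. Probesets B, C and D of MYH7 are _s_at probesets, A and E are _at probesets, and MYH6 has no probeset of its own. The share of B, C and D between MYH7 and its neighbour MYH6 was not resolved. Probeset B read 12.64, 12.74, 12.91 and 12.85 in heart, against 9.16, 11.84, 10.96 and 10.92 in skeletal muscle. The groups did not overlap, and heart was higher by 2.07 (SE 0.26, 4.19-fold, adjusted p = 5.2e-07). Probeset C read 7.94, 9.32, 8.80 and 9.41 in heart, against 4.26, 8.81, 6.08 and 7.04 in skeletal muscle, where array 2 reached into the range of heart, with a difference of 2.32 (SE 0.45, 4.99-fold, adjusted p = 0.000396). Probeset D read 6.71, 8.87, 8.22 and 8.66 in heart, against 4.04, 8.46, 5.78 and 5.26 in skeletal muscle, with a difference of 2.23 (SE 0.47) that was not called (adjusted p = 0.00121). Probeset E stayed between 3.97 and 4.52 in heart and between 3.82 and 4.18 in skeletal muscle. With the mean of all 5 MYH7 probesets as the value of the gene, heart was higher by 1.51, and this was called (adjusted p = 9.89e-06). That mean includes probesets B, C and D, so the same limit holds for it.

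The MYH7 probesets ranked the arrays differently. On probesets B, C and D, skeletal muscle array 1 was the lowest and array 2 the highest of its organ, and heart array 1 was the lowest heart array. On probeset A, skeletal muscle array 1 was the highest of its organ, at 13.01. Over all 39 arrays probeset A correlated with B at 0.985, with C at 0.897 and with D at 0.879.

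**Figure D4:**
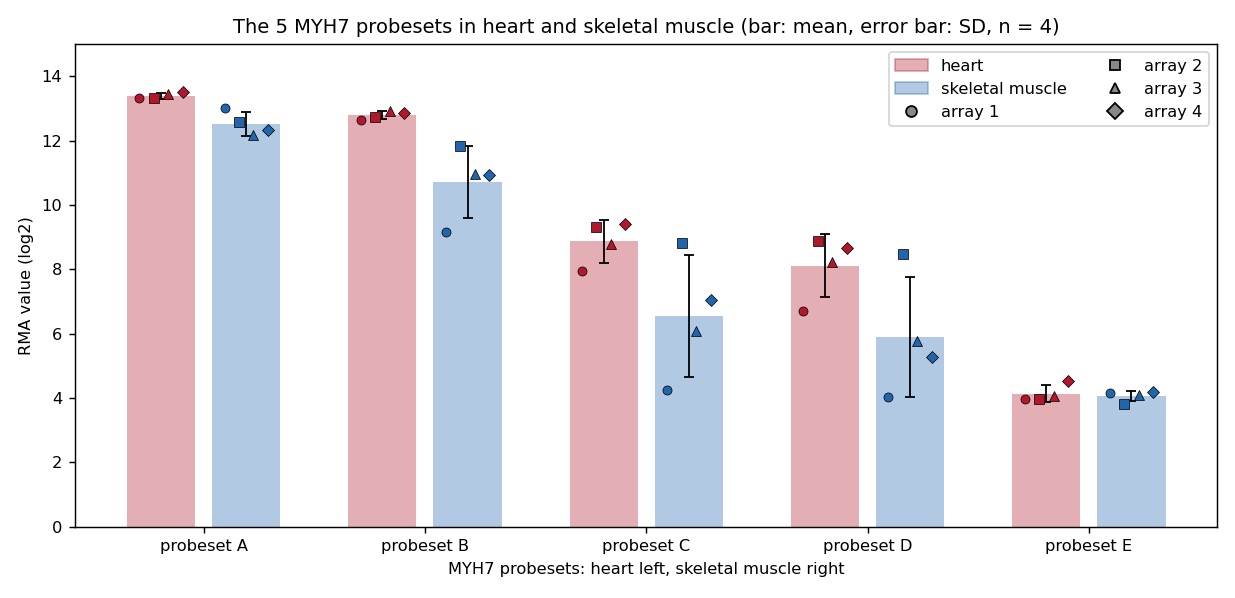
Normalised value (log2, vertical axis) of the 5 MYH7 probesets (A to E, horizontal axis) in heart (red, left of each pair) and skeletal muscle (blue); bars are means, error bars SD, n = 4 arrays each, symbols number the arrays. Heart is higher on A to D, skeletal muscle array 1 (circle) is lowest of its organ on B, C and D and highest on A, and E stays near 4.

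The fast chains made up the lower side of this contrast. MYH2, MYH1 and MYH3 were lower in heart by the values given above, 3 of 7 chains beside 1.5% of all genes, and 0 chains were higher by probeset A, beside 2.61%. Of 10 fast fibre partners 8 were lower in heart and 0 higher, with a median difference of -7.87, against -0.05 over all genes. TNNC2 differed by -9.55 (SE 0.52), MYLPF by -9.35 (SE 0.46), TNNI2 by -9.02 (SE 0.73) and TNNT3 by -8.71 (SE 0.22). The slow fibre partners were mostly shared: of 8 measured, 2 were higher in heart and 1 lower, with a median of 0.49. TNNT1, the slow troponin T of skeletal muscle, was lower in heart (-3.41, SE 0.29). MYOZ2, which anchors calcineurin at the Z disc, was higher in heart (1.82, SE 0.16), as was MYL3 (0.85, SE 0.16). MB, myoglobin, averaged 13.03 ± 0.07 in heart and 12.37 ± 1.2 in skeletal muscle (adjusted p = 0.498).

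The light chains that bind the neck of the heavy chain were split between the organs. Of 10 measured, 4 were higher in heart and 3 lower, beside 2.61% of all genes higher and 1.5% lower. MYL7, the atrial regulatory light chain, averaged 11.78 ± 0.55 in heart and 3.96 ± 0.23 in skeletal muscle (difference 7.82, SE 0.30, adjusted p = 1.61e-19). On the lower side were MYLPF, MYL1, the fast essential light chain (-8.21, SE 0.42), and MYL6B (-4.62, SE 0.37). MYL4, the atrial essential light chain, read 9.73, 10.32, 5.25 and 6.37 on heart arrays 1 to 4, against 6.13, 5.25, 5.10 and 4.99 in skeletal muscle, so heart arrays 1 and 2 were raised and arrays 3 and 4 were not clearly so. MYL7 was high on all of them, at 11.22, 12.37, 11.41 and 12.11. NPPB, the natriuretic peptide B, read 7.67, 8.15, 4.91 and 5.47 on the same heart arrays, against 4.76, 4.67, 5.53 and 4.89 in skeletal muscle, and was also higher on heart arrays 1 and 2 than on 3 and 4. On heart arrays 1 to 4 the liver markers averaged 5.49, 7.05, 4.46 and 4.41, and the 6 fibroblast markers 9.14, 10.33, 8.38 and 8.36, and their part in these values was not tested. Neither difference was called (adjusted p = 0.00359 for MYL4 and 0.00558 for NPPB), and MYH7 probeset A lay between 13.31 and 13.50 on all 4 heart arrays.

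Thick filament partners and myosin chaperones were present in both striated organs. Of 12, 8 were higher in heart than in the other 9 organs (median 3.32) and 9 in skeletal muscle (median 4.17). Beside these counts stand 8.24% of all genes in heart and 7.77% in skeletal muscle. Directly compared, 1 was higher in heart and 2 lower, beside 2.61% of all genes higher and 1.5% lower. MYBPC3, the cardiac myosin binding protein C, averaged 11.69 ± 0.09 in heart and 4.05 ± 0.19 in skeletal muscle (difference 7.65, SE 0.08). MYBPC1 averaged 3.55 ± 0.16 in heart and 12.62 ± 0.28 in skeletal muscle (-9.07, SE 0.39), and MYBPC2, the fast form, 4.32 ± 0.05 in heart and 11.29 ± 0.49 in skeletal muscle (-6.96, SE 0.22). MYOM2, a protein of the M band, averaged 10.91 ± 1.33 in heart and 9.87 ± 1.10 in skeletal muscle, a difference that was not called (adjusted p = 0.122). Of 8 measured myosin light chain kinases and phosphatase subunits, the cardiac kinase MYLK3 was higher in heart (6.58, SE 0.35) and the skeletal muscle kinase MYLK2 lower (-2.5, SE 0.23). Of 16 muscle transcription factors, 3 were higher in heart and 2 lower, beside the same 2.61% and 1.5% of all genes. The largest differences were in MYF6, a myogenic factor of skeletal muscle (-3.52, SE 0.27), MEF2C (-2.75, SE 0.31) and NKX2-5, a cardiac homeobox factor (2.0, SE 0.12).

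**Figure D5:**
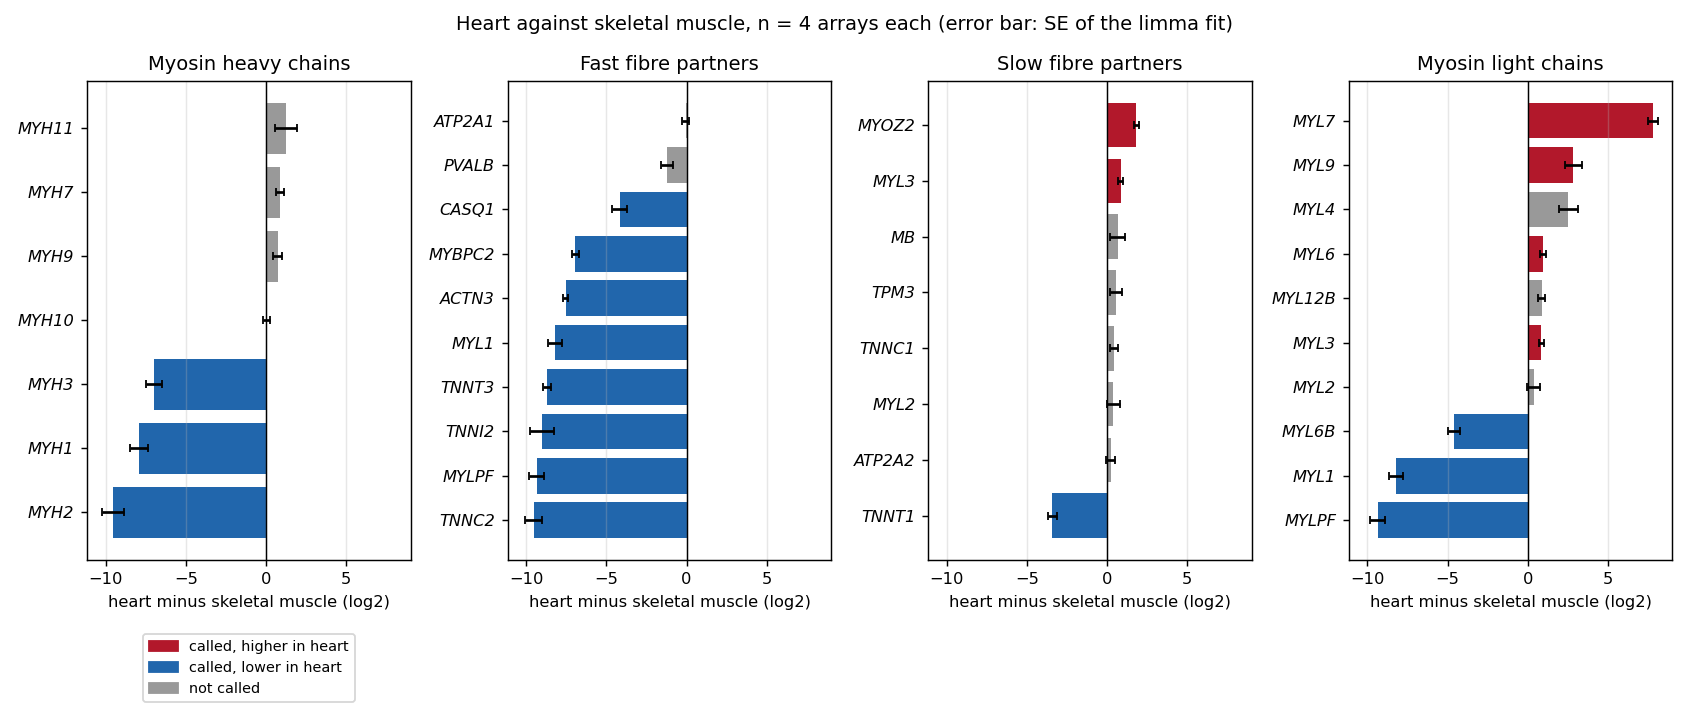
Difference of heart minus skeletal muscle (log2, horizontal axis) for the 7 myosin heavy chains (probeset A) and for the fast fibre partners, slow fibre partners and myosin light chains; bars are fitted differences, error bars their SE, n = 4 arrays each. MYH2, MYH1 and MYH3 lie between -9.55 and -6.99 beside 8 fast partners, while MYH7 (0.87) and most slow partners lie near 0.

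MYH11, the smooth muscle chain, was high in 3 organs. Probeset A read 12.66, 11.44, 13.35 and 12.02 in jejunum, 11.99, 11.34, 12.22 and 12.36 in spleen, and 11.45, 9.94, 11.50 and 11.76 in lung, against 3.99 to 8.66 (median 5.99) on the 27 arrays of the other 7 organs. The 12 high arrays did not overlap with the others. Jejunum averaged 12.37 ± 0.82 and was 32.5-fold higher than the mean of the other 9 organs (5.02, SE 0.52, adjusted p = 3.08e-09). Spleen averaged 11.98 ± 0.45 (4.59, SE 0.52, 24.1-fold, adjusted p = 2.54e-08), and lung 11.16 ± 0.83 (3.68, SE 0.52, 12.8-fold, adjusted p = 1.31e-06). The lung call was lost without the arrays with liver or pancreas markers, 2 of them from lung (3.40, adjusted p = 0.00284). The 3 organs could not be ordered: jejunum minus spleen was 0.39 (adjusted p = 0.812) and spleen minus lung 0.82 (adjusted p = 0.624). The next organ was heart at 7.58 ± 0.89, below lung by 3.58 (adjusted p = 0.000127), in a pair of organs that differed in 13.8% of all probesets.

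In the other organs MYH11 varied between arrays. Heart read 8.66, 6.64, 7.88 and 7.12, skeletal muscle 8.38, 5.27, 5.06 and 6.50, and pancreas 8.49, 8.23 and 4.36. Their ranges overlapped, and heart minus skeletal muscle was 1.27 (SE 0.69, adjusted p = 0.319), or 1.97 without skeletal muscle array 1. Brain was the lowest at 4.62 ± 0.55 (-3.58, SE 0.52, adjusted p = 1.02e-06), and liver averaged 5.35 ± 0.59 (-2.78, adjusted p = 7.93e-05).

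All 4 MYH11 probesets were called higher in jejunum and in spleen, and probesets A and B in lung. Probeset B averaged 10.78 ± 1.30 in jejunum, 10.03 ± 1.26 in spleen and 9.0 ± 1.0 in lung. Spleen array 3 stood apart by probeset. It read 12.22 on probeset A, within the range of the organ, but 5.79 on probeset C and 4.46 on probeset D, where the other spleen arrays read 9.41, 7.27 and 10.65 on C, and 8.17, 6.19 and 9.53 on D. The cause of this split was not tested.

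Smooth muscle partners were high in the same organs. Of 12, 8 were higher in jejunum (median 2.73), 8 in spleen (2.83) and 7 in lung (2.06), with 0 lower in each, and the medians of all genes were -0.03, -0.04 and -0.07. Beside these counts stand the gene-level backgrounds of 8.15% higher in jejunum, 6.94% in spleen and 8.59% in lung. ACTG2, the enteric smooth muscle actin, differed by 5.48 in jejunum, 3.02 in spleen and 3.61 in lung. CNN1, calponin of smooth muscle, differed by 5.26 in jejunum, 2.64 in spleen and 2.43 in lung. TAGLN, an actin-binding protein of smooth muscle, and MYLK, the kinase that switches smooth muscle myosin on, were called higher in all 3 organs. In brain 10 of the 12 partners were lower (median -2.69), beside 9.77% of all genes. Over the 39 arrays the genes most like MYH11 were ACTG2 (r = 0.939), TAGLN (r = 0.922) and CNN1 (r = 0.896).

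MYH9, the main non-muscle chain, was measured above the array medians in every organ, with a smaller range than the muscle chains. Probeset A averaged 9.57 ± 0.17 in lung, 9.56 ± 0.38 in spleen, 9.46 ± 0.23 in lymph node and 9.10 ± 0.29 in jejunum. Their 16 arrays ran from 8.69 to 9.94, and the 23 arrays of the other 6 organs from 5.41 to 8.35, with no overlap. Against the other 9 organs, lung was higher by 1.67 (SE 0.21, 3.17-fold, adjusted p = 1.27e-07), spleen by 1.66 (adjusted p = 1.48e-07), lymph node by 1.55 (adjusted p = 3.22e-07) and jejunum by 1.15 (adjusted p = 6.09e-05). The jejunum call was lost without jejunum array 3 (1.06, adjusted p = 0.00112) and with the housekeeping shift (0.94, adjusted p = 0.00172).

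Kidney followed at 8.14, liver at 7.76 and heart at 7.27. Pancreas read 7.14, 7.05 and 6.30, skeletal muscle 6.41, 7.54, 5.41 and 6.76, and brain 7.04, 6.37, 6.07 and 6.29. These 3 organs overlapped, and each was called lower: pancreas by -1.37 (SE 0.23, adjusted p = 1.59e-05), skeletal muscle by -1.71 (SE 0.21, adjusted p = 6.03e-08) and brain by -1.80 (SE 0.21, adjusted p = 1.11e-08). With array 2 as the only skeletal muscle array, the difference in skeletal muscle was -0.70 and was not called (adjusted p = 0.146). Skeletal muscle array 3, the lowest in MYH9, was also the lowest of its organ in the mean of 5 endothelial markers, at 5.62 against 7.08 to 7.18 on the other 3 arrays, and their part in the value was not tested. No neighbouring pair in the order of organs was called. The widest step, jejunum over kidney, was 0.95 (SE 0.28, adjusted p = 0.0114).

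The 3 dimmer MYH9 probesets put spleen, lymph node and lung on top again, with more spread. Probeset B averaged 7.26 ± 1.47 in spleen, and probeset C 6.57 ± 1.23 in lymph node, where it was called higher by 1.86 (SE 0.43, adjusted p = 0.000896). Spleen array 3 was again low on them: probeset B read 7.73, 7.22, 5.28 and 8.80, and probeset C 7.72, 6.36, 4.06 and 8.08 on spleen arrays 1 to 4, while probeset A read 9.72, 9.53, 9.05 and 9.94. Probeset D ran from 3.25 to 5.35 over all arrays. With the mean of all MYH9 probesets, the differences in lung (0.90), jejunum (0.22) and skeletal muscle (-0.85) were not called.

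Of 9 measured non-muscle actomyosin partners, 6 were higher in lung (median 1.13), 5 in jejunum (1.09), 3 in spleen (0.56) and 2 in lymph node. In the same order, 8.59%, 8.15%, 6.94% and 12.4% of all genes were higher. FLNA, filamin A, a crosslinker of actin, differed by 2.94 (SE 0.35) in lung, 2.71 in jejunum and 2.61 in spleen. TPM4, a non-muscle tropomyosin, differed by 2.10 in lung and 2.0 in spleen. In skeletal muscle 4 of the 9 were lower, beside 10.1% of all genes. Among them was ACTG1, the cytoplasmic gamma actin (-2.17, SE 0.17, adjusted p = 3.91e-12). By pattern MYH9 was most like HNRNPF, an RNA-binding protein (r = 0.920), B2M, the light chain of class I histocompatibility molecules (r = 0.914), and ELF1, a transcription factor of blood cells (r = 0.910).

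MYH10, the other non-muscle chain, was dim on the array and differed least. Probeset A read 5.31, 5.81, 5.45 and 5.55 in lung and 4.94, 4.98, 6.02 and 5.91 in brain, against 4.03 to 4.92 (median 4.43) on the 31 arrays of the other 8 organs. The lung and brain arrays lay above all others, in brain arrays 1 and 2 by a narrow margin. Lung averaged 5.53 ± 0.21 and was higher by 0.99 (SE 0.15, adjusted p = 5.01e-06), and brain averaged 5.46 ± 0.58 and was higher by 0.92 (SE 0.15, adjusted p = 8.89e-06). The 2 organs did not differ from each other beyond their spread (0.06, SE 0.20, adjusted p = 0.898), and brain over pancreas, the next organ, was 0.88 (SE 0.22, adjusted p = 0.00129). Without brain array 3 the difference in brain was 0.73. The brain call was lost without the arrays left out for liver or pancreas markers (0.71, adjusted p = 0.00267) and with the housekeeping shift (0.79, adjusted p = 0.0145). Probeset B was called higher in lung only (0.45, SE 0.08, adjusted p = 8.2e-05). The genes most like MYH10 were PVALB, the calcium buffer parvalbumin (r = 0.835), FMN2, a formin that nucleates actin (r = 0.822), and GFOD2 (r = 0.804).

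Other heavy chain symbols were measured outside the listed family. MYH7B, a slow-type chain, was highest in heart on all of its 4 probesets. Its brightest probeset averaged 8.43 ± 0.32 in heart and 7.14 ± 0.28 in skeletal muscle (difference 1.29, SE 0.21, adjusted p = 2.42e-05). The one with the largest difference averaged 9.64 ± 0.73 in heart and 5.39 ± 0.78 in skeletal muscle. In heart that probeset was higher than the mean of the other 9 organs by 5.45 (adjusted p = 9e-22). MYH4, the fast type IIB chain, averaged 3.95 ± 0.23 in heart and 4.97 ± 0.69 in skeletal muscle on its brighter probeset (-1.03, SE 0.18, adjusted p = 0.000123), while its other probeset averaged 3.59 in heart and 3.67 in skeletal muscle. MYH15 and MYH16 averaged at most 4.73 in any organ.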

How the data were processed

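RNA of 10 canine organs was hybridised by the authors to Affymetrix Canine Version 2.0 arrays. The authors deposited log2 values from Partek: probe signals were adjusted for their GC content and sequence, background-corrected by RMA, quantile-normalised and summarised per probeset by median polish. Quantile normalization makes the arrays alike in distribution, so values are relative within an array. The number of arrays limits the precision. Values were used as deposited, with 0 missing values. A mean per organ was fitted with limma (version 3.58.1, R version 4.3.3) to all 39 arrays, with organ as the only term. The study's model also held scan date, which no label gives. Within each contrast a Benjamini-Hochberg adjustment ran over the 42860 probesets, and a call needed an adjusted p below 0.001. SE is that of the fit, SD that between arrays, and fold changes, given only between groups above background, are powers of the log2 differences. Of the probesets, 29254 carry a single symbol, for 15115 genes, and each gene outside the family is given by its probeset with the highest mean. The fits were tested on simulated data.

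All members are named. Of each list at most 4 genes are named, those with the largest difference in the contrast, and for each member the 3 genes with the highest r. Beside these, MYL4 and NPPB are named from lists of atrial and ventricular genes, whose other members and counts are not described. ATP2A1 and PVALB are named as fast fibre partners that stayed dim. Members and lists were chosen with earlier results of these data known. The RefSeq gene table (UU_Cfam_GSD_1.0) is of another assembly than the study's, so it gave names and neighbours only. No sequences were used here. Alternatives were ordinary and trended variance, the replicate number as a block, equal array medians, a housekeeping shift (13 of 16 listed genes measured), a minimum mean of 5, a false discovery rate of 0.05, the median of the other 9 organs, the mean of all probesets of a gene, and each array left out.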

Additional observations from a re-analysis of the deposited data

Results flagged for a closer look

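An array was singled out where it lay far outside the other arrays of its organ for probeset A, that is, where its gap to the nearest array took most of the range of the organ. This was tested in 63 groups of 4 arrays, of which chance would flag about 1 in 20, and 6 were found. MYH2 read 8.42 on lung array 2 and 4.87 on jejunum array 1. MYH1 read 5.81 on brain array 1 and 4.81 on jejunum array 1. MYH3 read 6.37 on brain array 2. MYH7 read 4.31 on spleen array 3, above the other spleen arrays, which lay between 3.83 and 3.89. The high MYH2 value on brain array 3 (8.08) was not among them, because brain array 1 was raised as well.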

How the results depend on the processing

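Most results kept their direction and their side of the threshold. With the housekeeping shift, which moved the median difference of all probesets to as much as 1.64 (pancreas) and -1.04 (kidney), the calls were 14 in heart (beside 58.8% of all probesets), 20 in kidney (76.9%) and 7 in pancreas (77.3%), and heart minus skeletal muscle turned to -0.08 for MYH7, -0.21 for MYH9 and -0.91 for MYH10. A minimum mean of 5 left 7 calls by the F test (82.2%), 4 in skeletal muscle (33.7%) and 1 in heart against skeletal muscle (7.13%), since it keeps fewer probesets. At a false discovery rate of 0.05 there were 11 calls in brain (35.9%), 6 in kidney (23.2%), 11 in lymph node (33.4%) and 9 in heart against skeletal muscle (9.65%). With the median of the other 9 organs, pancreas had 1 call (23.8%). With skeletal muscle arrays 1, 3 and 4 left out, a setting added after seeing the data that assumes the array kept to vary like other groups, the calls were 8 in heart (14.8%), 11 in jejunum (11.4%), 8 in kidney (12.3%), 10 in liver (14.2%), 13 in lung (12.4%), 9 in lymph node (18%) and 5 in pancreas (27.8%), and heart minus skeletal muscle in MYH9 was -0.27. Without brain array 3 and lung array 2, also added later, no call of a named difference changed. Without the arrays of the other organs with liver or pancreas markers, added later too, lymph node had 3 calls (12.1%), and the differences of MYH11 in lung and MYH10 in brain were not called. The causes were not tested.

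With each array left out in turn, the lymph node count ran from 3 to 8, and the difference of MYH10 between heart and skeletal muscle, which was 0.03, from -0.06 to 0.17. Of the differences that were not called, heart minus skeletal muscle ran from 0.86 to 1.97 in MYH11 (1.97 without skeletal muscle array 1) and from 0.36 to 1.07 in MYH9 (0.36 without skeletal muscle array 3). All other counts stayed within 1.5 times.

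Replicate numbers were used as a block in 1 alternative, although the labels do not say that they mark a dog. Of 171 pairs of arrays with the same number, 92 had deviations correlated above 0.1 (range -0.222 to 0.422), so not every pair moved together. Of 39 arrays, 31 correlated best with their own number. Numbers may mark dogs or a batch such as scan date, which cannot be told apart here. Whether the numbers pair the arrays is not settled. The block gave 17 calls by the F test, 8 in brain, 11 in skeletal muscle and 6 in heart against skeletal muscle, and changed no call of a named difference. Without the block these counts were 17, 7, 11 and 5, beside 54.6%, 19%, 15.2% and 3.98% of all probesets. The shares under the block are not given here. Signals near 4 are compressed, which limits what MYH10 and the dim probesets can show.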
